A study of Mus musculus with 16 samples.

Results

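The genes described here encode the pore-forming and accessory subunits of sodium, calcium and potassium channels, measured in the cerebellum of 3-week-old Npc1-/- and wild-type mice. They were chosen by gene name alone: every gene that the Agilent array names with the prefixes of sodium channel alpha and beta subunits (Scn), calcium channel alpha, beta and gamma subunits (Cacna, Cacnb, Cacng) or potassium channels (Kcn). The array holds 122 such genes, measured by 196 of its 41174 probes, and 97 of them stood well above background on 4 or more of the 8 arrays and were tested among 17984 genes in all. The name rule is wider than voltage gating. It also takes the inward rectifiers (Kcnj), the two-pore-domain channels (Kcnk), the small-conductance calcium-activated channels (Kcnn), accessory proteins that bind channels, gamma subunits that mainly serve AMPA receptors, and Kcnq1ot1, a long non-coding RNA.

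The labels name 4 arrays of Npc1-/- and 4 of wild-type cerebellum, from mice of the BALB/cNctr-Npc1m1N/J strain, on a BALB/c background. Npc1-/- mice were bred in house from heterozygous parents. They lack a working Npc1, a protein that moves cholesterol out of lysosomes, in every cell. Each array received 500 ng of total RNA from snap-frozen tissue, labelled with the dye Cy3. The other 8 arrays of the study, of the Illumina type, identify probes by number without gene names and were not used here. The labels call each array a separate sample but do not say which mouse each array measured, so p-values rest on the spread among these arrays.

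Voltage-gated channels set how neurons fire. Sodium channels at the axon initial segment start the action potential, potassium channels end it and set the pace of the next, and calcium channels turn it into transmitter release and signals inside the cell. In cerebellum these genes are known from ataxias: Purkinje cells, which fire without input at a steady rate, need P/Q-type calcium channels, resurgent sodium current, fast Shaw potassium channels and calcium-activated potassium channels to keep that rate.

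The arrays carried the labelled genotypes and tissue. Npc1 signal was -2.53, -2.44, -2.32 and -2.60 on Npc1-/- arrays, against -0.52, -0.40, -0.64 and -0.37 on wild-type arrays, in log2 units relative to each array's 75th percentile, the scale of every signal below. On this scale 0 is a spot as bright as the array's 75th percentile. Npc1 differed by -1.99 ± 0.10 (log2 fold change of Npc1-/- over wild type, limma adjusted p = 0.00045), where the value after ±, here and below, is the SE of the log2 fold change with 4 arrays per genotype. Where the Npc1 probe lies relative to the mutation was not examined. All 10 Purkinje cell markers and all 10 granule cell markers examined were above the detection filter. Between 22193 and 28134 probes were well above background per array, the lowest number on wild-type replicate 2, and the 4 arrays per genotype limit the precision of each comparison.

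No channel gene passed the test. Of the 97 tested, 0 had a limma adjusted p under 0.05, taken over all 17984 genes, where 138 genes or 0.767% of all did, 132 of them higher and 6 lower in Npc1-/- cerebellum. At an unadjusted p under 0.05 there were 7 channel genes, or 7.22% of them, beside 7.4% of all genes. The 4 arrays of one genotype lay wholly above the 4 of the other for 2 channel genes, or 2.06%, beside 4.92% of all genes. These shares of channel genes were near or under those of all genes in the fit with all 8 arrays. The count at an unadjusted p under 0.05 depended on single arrays. Without wild-type replicate 2 it was 18 channel genes, or 18.6% beside 10.4% of all genes, 9 of them higher and 9 lower. Without Npc1-/- replicate 3 it was 15, or 15.5% beside 7.73%, 12 of them higher. With array weights it was 16, or 16.5% beside 17.5%. Log2 fold changes were above 0 for 48 channel genes and below 0 for 49, with a median of -0.01, beside a median of -0.02 over all genes. They ran from -0.52 for Kcnk13 to 0.99 for Kcna5, and 66 of the 97 were within 0.25 of 0.

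**Figure D1:**
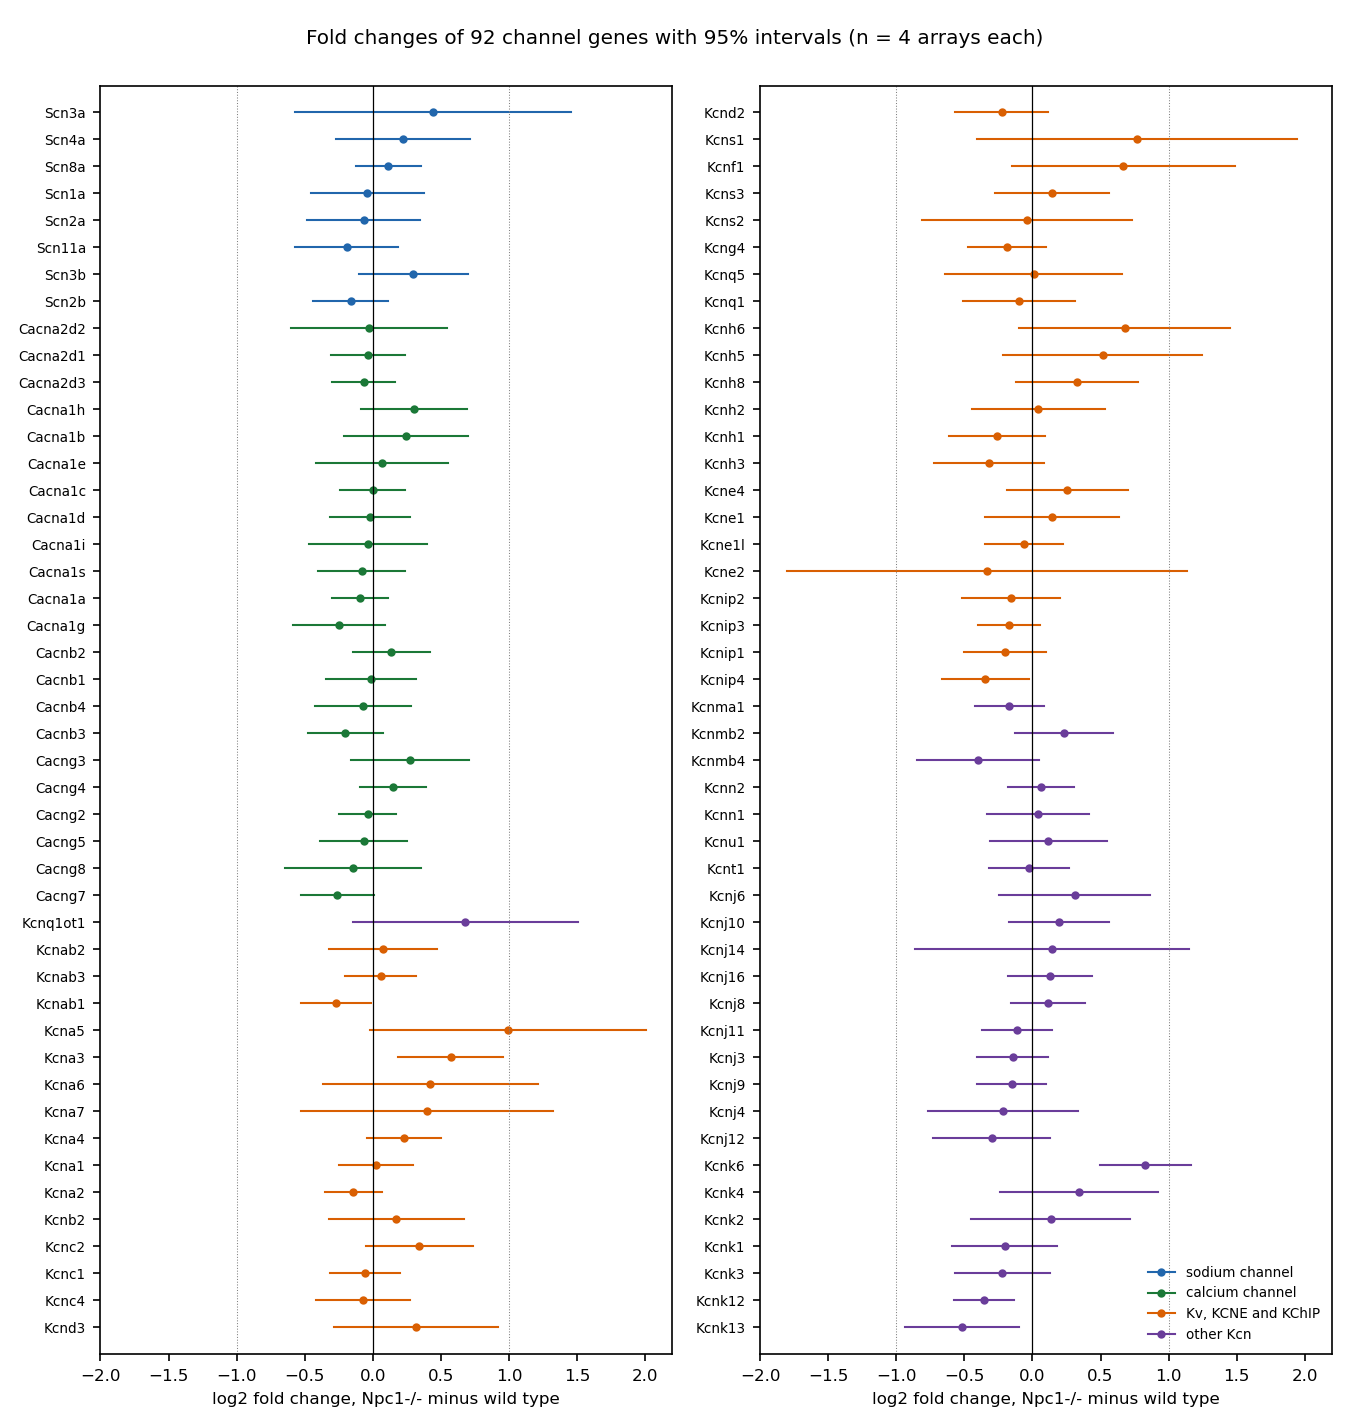
Log2 fold change of Npc1-/- over wild type for 92 of the 97 tested channel genes (x axis), grouped down the page by family and coloured by class; points are limma estimates, bars 95% intervals, dotted lines mark -1 and 1, n = 4 arrays per genotype. Most points lie near 0. Kcnk6 at 0.83 has the interval furthest from 0 and Kcne2 the widest. The intervals of Kcna3, Kcnk12, Kcnk13, Kcnip4 and Kcnab1 also leave out 0, though none of these genes passed the adjusted test.

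The intervals give the differences that the arrays leave possible. For 39 of the 97 genes the 95% interval of the log2 fold change stayed within 0.5 of 0, a 1.41-fold change either way, and for 84 it stayed within 1, a 2-fold change. Of the 33 tested genes picked for known roles in cerebellum, 19 kept within 0.5 and 32 within 1, Kcna6 being the exception. The 13 genes with intervals past 1 on either side included Kcna5, Kcna6, Kcna7, Kcne2, Kcnf1, Kcnh5, Kcnh6, Kcnj14, Kcnk6, Kcnq1ot1, Kcns1 and Scn3a. The interval of Kcnk6, 0.49 to 1.16, passed 1 through its value of 0.83. The SE of Kcnk6, 0.15, was under the median SE of 0.16 over the channel genes. A gene that missed the threshold may still differ by any amount inside its interval. In whole cerebellum, fewer cells of a type and less RNA per cell cannot be told apart.

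**Figure D2:**
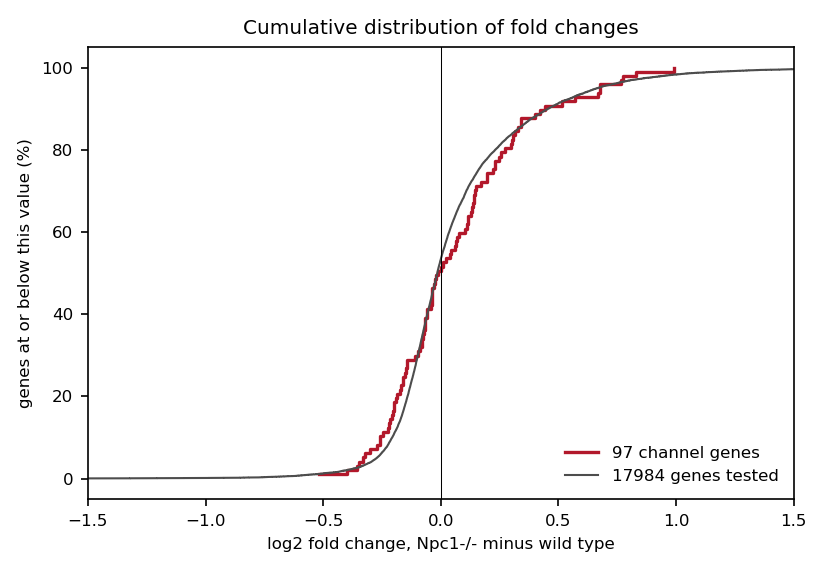
Share of genes (y axis, %) with a log2 fold change of Npc1-/- over wild type at or below the value on the x axis, for the 97 channel genes (red) and all 17984 genes tested (grey). Both medians lie near 0, at -0.01 and -0.02, and the channel curve is the flatter one, with a median absolute log2 fold change of 0.173 beside 0.13 over all genes. The channel genes also had the larger SE, with a median of 0.161 beside 0.14 over all genes.

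The sodium channel alpha subunits of cerebellar neurons showed small differences. Scn8a carries most of the resurgent current of Purkinje cells. Its signal was 4.68, 4.69, 4.78 and 4.55 on Npc1-/- arrays, against 4.75, 4.62, 4.44 and 4.43 on wild-type arrays. The groups overlapped, with a log2 fold change of 0.11 ± 0.11 (limma adjusted p = 0.757). Scn1a, the main alpha subunit of inhibitory neurons, had a log2 fold change of -0.04 ± 0.18. Scn2a, found in unmyelinated granule cell axons, had -0.07 ± 0.18. For these 3 genes the 95% intervals together ran from -0.48 to 0.38. Over the 7 alpha subunit genes tested of 10 on the array, the median log2 fold change was 0.11.

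The beta subunits bind the alpha subunits and act as adhesion molecules. Scn2b had a log2 fold change of -0.16 ± 0.12, while Scn3b, named here after its value was seen, had 0.30 ± 0.18 (limma adjusted p = 0.753 and 0.752).

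Among the calcium channels, the gene of the P/Q-type pore was close to equal. Cacna1a, mutated in episodic and spinocerebellar ataxia, had signals of 0.18, -0.06, 0.11 and -0.01 on Npc1-/- arrays, against 0.17, 0.16, 0.17 and 0.07 on wild-type arrays. The groups overlapped, and the log2 fold change was -0.09 ± 0.09 (limma adjusted p = 0.767), with a 95% interval of -0.30 to 0.11. A second probe of the gene gave another picture, described below. Cacna1g, a T-type pore of Purkinje cells and deep nuclei, had -0.25 ± 0.15, and Cacna1c, an L-type pore, had 0.00 ± 0.11 (limma adjusted p = 0.752 and 1). Of the 9 alpha-1 genes tested, 4 were above 0 and 5 below, between -0.25 and 0.30.

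The auxiliary calcium channel subunits were also near 0 on the probes used. Cacna2d2, whose loss causes the ducky mouse's ataxia, had a log2 fold change of -0.03 ± 0.25. A dimmer probe of Cacna2d2 gave -0.25 ± 0.08, with all Npc1-/- arrays below all wild-type arrays. That difference did not pass the test (limma adjusted p = 0.545 over all kept probes). The further probes of Cacna2d2 gave -0.02 and 0.17. Cacna2d1, a subunit that brings channels to the membrane, had -0.04 ± 0.12, and all 3 alpha-2-delta genes lay between -0.07 and -0.03. Cacnb4, the beta subunit lost in the lethargic mouse, had -0.07 ± 0.15. The 4 beta subunit genes had a median of -0.04.

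The gamma subunits bring AMPA receptors to synapses. Cacng2, stargazin, which granule cells need for AMPA receptors at the mossy fibre synapse, had a log2 fold change of -0.04 ± 0.09 (limma adjusted p = 0.896). Cacng7, which is also found in cerebellar neurons, had signals of -1.03, -0.81, -0.98 and -0.84 on Npc1-/- arrays, against -0.84, -0.78, -0.42 and -0.58 on wild-type arrays. The highest Npc1-/- array lay within the wild-type range, and the difference of -0.26 ± 0.12 did not pass the test (limma adjusted p = 0.691).

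The Shaker (Kv1) potassium channels hold back repeated firing in axons. Kcna1, lost in episodic ataxia and strong in the basket cell pinceau, had signals of 6.0, 5.89, 6.07 and 5.65 on Npc1-/- arrays, against 6.01, 5.93, 5.71 and 5.88 on wild-type arrays. The groups overlapped, with a log2 fold change of 0.02 ± 0.12 (limma adjusted p = 0.957). Its partner Kcna2 had -0.14 ± 0.09. Kcna6 had 0.42 ± 0.35, with wild-type arrays spread from -3.22 to -1.58. It was 0.74 without wild-type replicate 2 and 0.20 without wild-type replicate 3. Of the 7 Kv1 genes, 6 were above 0 and none passed the test. Their median was 0.40, and between 0.14 and 0.49 over the 20 alternative settings, which reuse the same arrays. The median gene was Kcna7, a dim one, with mean signals of -3.02 on Npc1-/- and -3.42 on wild-type arrays. The summed level of the Kv1 genes, taken with the log removed and led by Kcna1, overlapped. It was 51.1 to 68.3 on Npc1-/- arrays and 53.0 to 65.1 on wild-type arrays.

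Kcna3, the Kv1 channel known from T cells and activated microglia, was dim. Its signal was -5.04, -5.73, -5.26 and -5.15 on Npc1-/- arrays, against -5.92, -6.12, -5.75 and -5.69 on wild-type arrays. Npc1-/- replicate 2 lay among the wild-type arrays. The probe was well above background on 3 Npc1-/- and 2 wild-type arrays, and the log2 fold change was 0.57 ± 0.17 (limma adjusted p = 0.338). It was 0.12 in the setting that combined normexp background correction with quantile normalization.

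Kcna5, a Kv1 channel of vessels and glia, had the largest fold change of the channel genes. Its signal was -3.60, -3.13, -4.50 and -4.28 on Npc1-/- arrays, against -5.18, -5.90, -4.15 and -4.26 on wild-type arrays. The probe was well above background on 4 Npc1-/- and 3 wild-type arrays. The groups overlapped. Wild-type replicate 2, the array with the fewest probes above background, was the lowest and the one where this probe was not well above it. The log2 fold change was 0.99 ± 0.44 (limma adjusted p = 0.691), and without that array it was 0.65. Over the alternative settings it ran from 0.32, with normexp and quantile normalization, to 1.29, with the slide as a block.

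**Figure D3:**
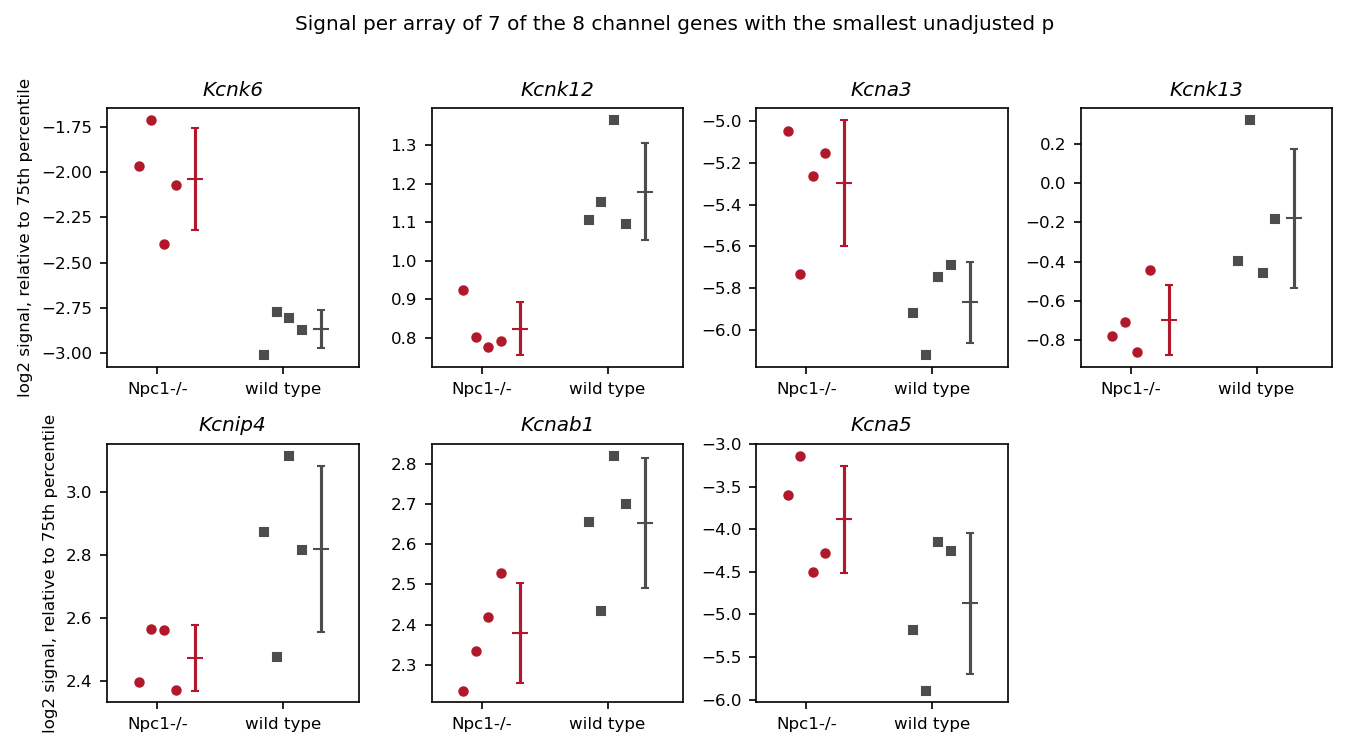
Signal per array (log2, relative to the array's 75th percentile) of 7 of the 8 channel genes with the smallest unadjusted p, Npc1-/- arrays as red circles on the left and wild-type arrays as grey squares on the right, with mean ± SD beside them (n = 4 each). The genotypes do not overlap for Kcnk6, at -2.40 to -1.71 in Npc1-/- against -3.01 to -2.77 in wild type, and Kcnk12; they overlap for the other 5. The y axes differ between panels.

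Among the Shaw (Kv3) channels, which let neurons fire fast, Kcnc1, strong in granule cells, had signals of 3.83, 3.40, 3.72 and 3.67 on Npc1-/- arrays, against 3.74, 3.83, 3.65 and 3.63 on wild-type arrays. The groups overlapped and the log2 fold change was -0.06 ± 0.11 (limma adjusted p = 0.875).

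The Shal (Kv4) channels carry the A-type current of granule cells. Kcnd2 had a log2 fold change of -0.23 ± 0.15 and Kcnd3, mutated in a spinocerebellar ataxia, of 0.31 ± 0.26 (limma adjusted p = 0.752 and 0.753). A second, dimmer probe of Kcnd2 gave 0.02 ± 0.20. The KChIP proteins, which bind Shal channels and help them to the membrane, all had values below 0. Kcnip4, a KChIP of granule cells, had signals of 2.40, 2.57, 2.56 and 2.37 on Npc1-/- arrays, against 2.87, 2.48, 3.12 and 2.82 on wild-type arrays. Only wild-type replicate 2 lay within the Npc1-/- range. The difference was -0.35 ± 0.14 (limma adjusted p = 0.618), while a second, dimmer probe of Kcnip4 gave -0.16 ± 0.13.

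The other KChIP genes lay closer to 0. Kcnip1 had a log2 fold change of -0.20 ± 0.13, and the 4 KChIP genes ran from -0.35 to -0.16 with a median of -0.19. That median stayed below 0 in all 20 alternative settings, between -0.24 and -0.13. These settings reuse the same arrays, so the constant sign is not independent support. Among the families, such ranges are given for KChIP and Kv1 only. Beside the KChIP genes, all 10 Purkinje markers and all 10 granule markers also had values below 0, with medians of -0.23 and -0.23 and 0 called. The summed level of the granule markers, taken from signals with the log removed, was 232 to 292 on Npc1-/- arrays and 263 to 315 on wild-type arrays. That of the Purkinje markers was 376 to 410 on Npc1-/- arrays and 396 to 535 on wild-type arrays, with the highest value on wild-type replicate 3. The part of these markers in the KChIP values was not tested.

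The Kv beta subunits bind Shaker channels from inside the cell. Kcnab1 had signals of 2.24, 2.33, 2.42 and 2.53 on Npc1-/- arrays, against 2.66, 2.43, 2.82 and 2.70 on wild-type arrays. Wild-type replicate 2 was the single overlap. The log2 fold change was -0.27 ± 0.11 (limma adjusted p = 0.64), while a second, dimmer probe gave -0.06. Kcnab2 had 0.08 ± 0.17 (limma adjusted p = 0.892).

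Calcium-activated potassium channels shape the pause after Purkinje cell spikes. Kcnma1, the BK pore, had a log2 fold change of -0.17 ± 0.11. Kcnmb4, the neuronal BK beta subunit, had signals of 3.77, 4.01, 4.38 and 4.20 on Npc1-/- arrays, against 4.53, 4.02, 4.85 and 4.56 on wild-type arrays. The ranges overlapped through wild-type replicate 2 and the difference was -0.40 ± 0.20 (limma adjusted p = 0.752). Kcnn2, the small-conductance channel of Purkinje cells, had 0.06 ± 0.11.

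The inward rectifiers hold the resting potential. Kcnj10, which takes up potassium in astrocytes and Bergmann glia, had a log2 fold change of 0.20 ± 0.16, which was 0.33 without wild-type replicate 2, 0.11 without wild-type replicate 3 and 0.10 without Npc1-/- replicate 4. Kcnj3 and Kcnj6, subunits of the channel opened by G proteins, had -0.15 ± 0.12 and 0.31 ± 0.24 (limma adjusted p = 0.753 for all 3 genes). The 10 inward rectifiers tested of 14 on the array had 5 values on each side of 0.

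Nearest to a call were Kcnk6 and then Kcnk12, two-pore-domain channels, which carry leak potassium current and are not gated by voltage. The voltage-gated Kcna3 came next (limma adjusted p = 0.338), before the two-pore gene Kcnk13. Kcnk6, or TWIK2, a channel of endosomal and lysosomal membranes that also sits at the surface of macrophages, had signals of -1.97, -1.71, -2.40 and -2.07 on Npc1-/- arrays, against -3.01, -2.77, -2.81 and -2.87 on wild-type arrays. The 4 Npc1-/- arrays were all above the 4 wild-type arrays. The log2 fold change was 0.83 ± 0.15 (1.78-fold), with a limma adjusted p of 0.0506 just over the threshold. On the 3 slides with arrays of both genotypes it was 1.09, 0.75 and 0.62. It was under the threshold in 5 of 20 alternative settings, and its adjusted p ran from 0.0116 to 0.271 over them.

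Microglia and macrophage markers differed between the same arrays. Of the 12 in the list, 6 rose in Npc1-/- cerebellum, namely Cd68, Trem2, Tyrobp, C1qc, C1qa and Ptprc, and the median log2 fold change was 1.03. The summed level of the list was 15.5 to 20.3 on Npc1-/- arrays and 6.90 to 9.56 on wild-type arrays. P2ry12 and Tmem119, which mark resting microglia, had log2 fold changes of 0.25 and 0.14 and did not pass the test. Of the 7 meningeal markers only Ptgds was called, at 0.96 on the log2 scale, and the list had a median of 0.42. Of the 8 pericyte and smooth muscle markers only Anpep was called, at 0.77. That list ran from -0.21 to 0.77, with a median of 0.03. The part of any of these cell types in the Kcnk6 and Kcna3 values was not tested.

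Kcnk12 and Kcnk13 encode the closely related THIK channels and both had values below 0. Kcnk12 had signals of 0.93, 0.80, 0.78 and 0.79 on Npc1-/- arrays, against 1.11, 1.15, 1.36 and 1.09 on wild-type arrays. All Npc1-/- arrays were below all wild-type arrays, with a log2 fold change of -0.36 ± 0.09 that did not pass the test (limma adjusted p = 0.25).

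Kcnk13 encodes the leak channel that sets the resting potential of microglia in rodent brain. Its signals were -0.78, -0.71, -0.86 and -0.44 on Npc1-/- arrays, against -0.40, 0.32, -0.46 and -0.18 on wild-type arrays. Wild-type replicate 2 was the highest, and Npc1-/- replicate 4 lay within the wild-type range. The log2 fold change was -0.52 ± 0.18 (limma adjusted p = 0.503), on the opposite side of 0 from all 12 microglia markers. Without wild-type replicate 2 it was -0.35. The medians of the myelin and of the oligodendrocyte precursor markers were also highest on wild-type replicate 2, by 0.58 and 0.43 over the mean of all arrays on the log2 scale. Of the 10 myelin markers 0 were called, at a median log2 fold change of -0.58 and with a summed level of 249 to 303 on Npc1-/- arrays and 330 to 434 on wild-type arrays. The part of these cells in the Kcnk13 value was not tested.

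The other two-pore genes named for their place in cerebellum lay closer to 0. Kcnk1 had a log2 fold change of -0.21 ± 0.17 and Kcnk3, which makes the standing outward current of granule cells together with a relative, had -0.22 ± 0.15 (limma adjusted p = 0.753 and 0.752).

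The 250 bases before the start of the THIK pair and of the dim Shaker pair are shown, since these are the channel genes with values on the same side within a pair and the smallest p or largest fold change. The sequences are RefSeq's, on build GRCm38.p6, read on the gene's strand, where 91 of the 122 channel genes had an entry and Kcnk6 had none. Kcnk12 is on the minus strand at chr17:87797995-87798244, Kcnk13 on the plus strand at chr12:99964249-99964498, Kcna3 on the plus strand at chr3:107035912-107036161 and Kcna5 on the minus strand at chr6:126535556-126535805. Capitals mark matches, on either strand, to the GC box GGGCGG bound by Sp1, the E-box CACGTG, bound by TFEB among others, and GAGGAA, the purine-rich core bound by the myeloid factor PU.1; no matches overlap.
Kcnk12: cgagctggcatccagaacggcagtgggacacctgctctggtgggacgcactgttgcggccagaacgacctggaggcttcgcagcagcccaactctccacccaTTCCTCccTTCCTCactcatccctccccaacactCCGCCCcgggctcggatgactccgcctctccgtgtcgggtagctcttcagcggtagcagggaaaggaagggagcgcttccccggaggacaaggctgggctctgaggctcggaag
Kcnk13: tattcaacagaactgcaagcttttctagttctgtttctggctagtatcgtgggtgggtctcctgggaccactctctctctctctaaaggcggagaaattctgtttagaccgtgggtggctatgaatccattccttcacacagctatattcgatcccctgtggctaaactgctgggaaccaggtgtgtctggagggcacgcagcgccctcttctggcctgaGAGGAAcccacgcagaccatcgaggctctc
Kcna3: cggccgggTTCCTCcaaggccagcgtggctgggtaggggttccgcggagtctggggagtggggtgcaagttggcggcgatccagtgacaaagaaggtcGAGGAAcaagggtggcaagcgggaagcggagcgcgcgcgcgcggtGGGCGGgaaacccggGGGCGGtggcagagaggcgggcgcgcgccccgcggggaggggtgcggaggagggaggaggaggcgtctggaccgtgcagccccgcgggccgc
Kcna5: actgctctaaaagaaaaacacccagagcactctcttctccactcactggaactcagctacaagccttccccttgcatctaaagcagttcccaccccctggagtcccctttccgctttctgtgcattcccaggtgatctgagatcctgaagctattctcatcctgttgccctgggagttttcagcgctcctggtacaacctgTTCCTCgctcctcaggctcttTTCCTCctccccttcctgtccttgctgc
The Kcnk12 stretch held 1 GC box match, 114 bases before the start, and 2 purine-rich matches, at 140 and 148 bases. The Kcnk13 stretch held 1 purine-rich match, 30 bases before the start. The Kcna3 stretch held 2 GC box and 2 purine-rich matches, and the Kcna5 stretch 2 purine-rich matches. None of the 4 held the E-box. Among 32851 RefSeq promoter stretches of the same length, 32.7% held the GC box, 6.02% the E-box and 23.3% the purine-rich core, and among the 126 stretches of channel genes 42.9%, 3.97% and 21.4% did. A match is a description of the letters and not a bound site.

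2 channel transcripts outside these lists are given because a single array (Kcne2) or a few arrays (Kcnq1ot1) set their spread. They were named after their values were seen. Kcne2, an accessory subunit strong in choroid plexus, had signals of -0.06, 0.43, -2.61 and 0.44 on Npc1-/- arrays, against -0.42, 0.43, -0.41 and -0.06 on wild-type arrays. Npc1-/- replicate 3 was far below the rest. The 8 choroid plexus markers also had their lowest median there, 1.44 under the mean of all arrays on the log2 scale, and a summed level of 8.37 to 36.2 on Npc1-/- arrays and 21.04 to 33.4 on wild-type arrays. The part of choroid plexus in the Kcne2 value was not tested. Kcnq1ot1 had signals of 0.14, 0.17, 0.34 and -0.45 on Npc1-/- arrays, against 0.06, -0.02, -1.5 and -1.04 on wild-type arrays. Wild-type replicates 3 and 4 and Npc1-/- replicate 4 were the lowest 3 arrays.

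**Figure D4:**
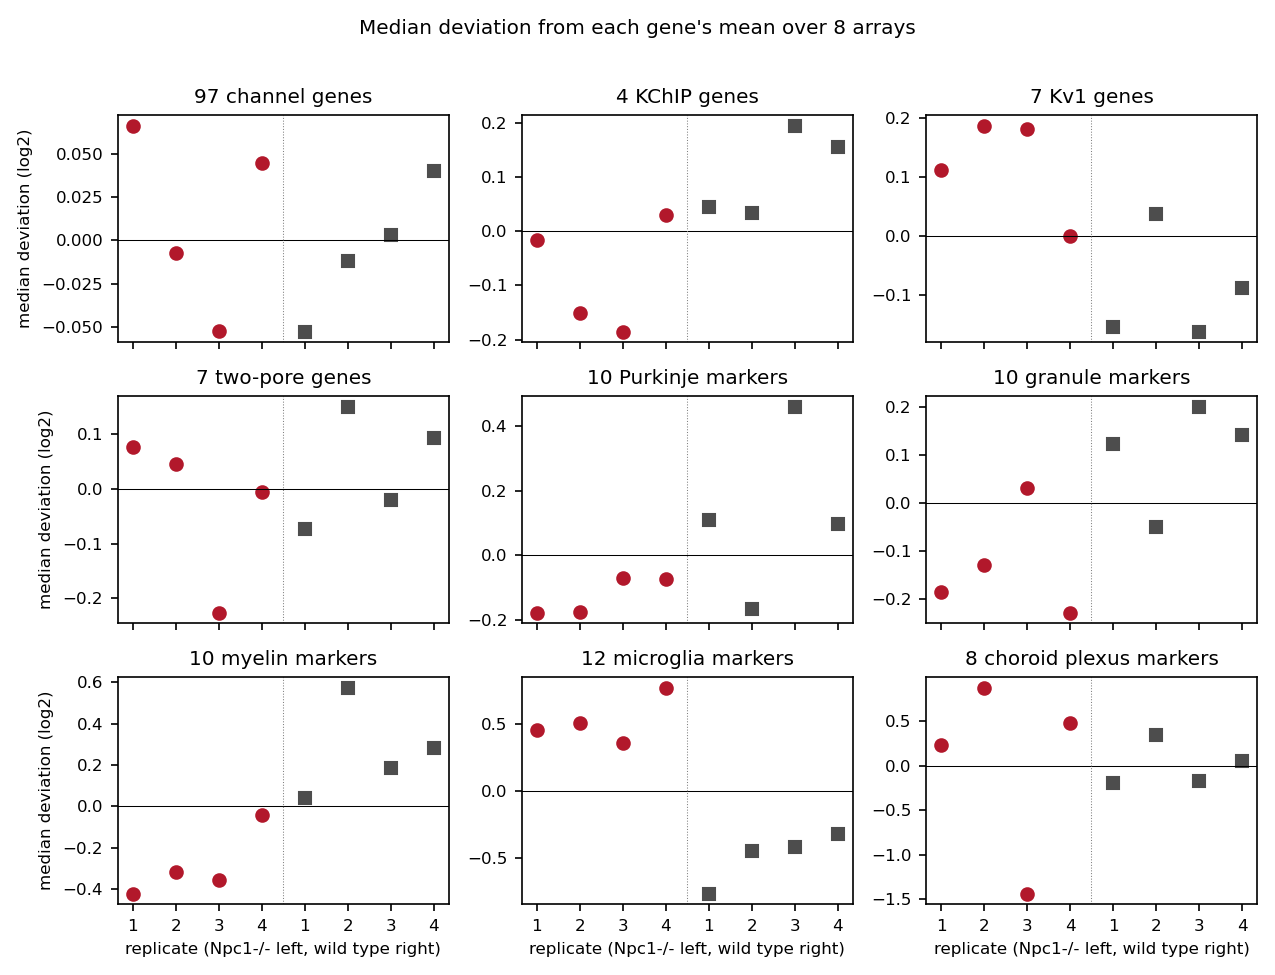
Median deviation of each gene from its mean over the 8 arrays (log2, y axis), by array, for the 97 channel genes, 3 channel families and 5 marker lists; red circles on the left are Npc1-/- arrays and grey squares on the right wild-type arrays, by replicate number. The channel genes stay within 0.07 of 0 on every array, the microglia markers separate the genotypes, and the choroid plexus markers are at -1.44 on Npc1-/- replicate 3. The y axes differ between panels.

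Different probes of a channel gene did not always move alike. Of the 36 tested channel genes with several probes above the filter, 23 had probes of one sign and 13 of both. In 34 comparisons of a second probe with the one used, over 28 genes with both well above background on all arrays, the gap between the probes varied by more than 1 log2 unit over the arrays in 7. In 5 of those 7, among them those of Cacnb2, Cacna1a, Kcnd2 and Scn2a, the second probe was lowest relative to the first on wild-type replicate 3.

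Cacna1a shows the size of this. Its second probe gave a log2 fold change of 0.40, where the one used gave -0.09, and was at -1.41 on wild-type replicate 3, against -0.86 to 0.02 on the other wild-type arrays. Neither difference passed the test. With the mean of all probes of the gene, Cacna1a had 0.15, so that its sign turned.

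The first 30 of the 60 bases of each of these probes, and of the Kcnk6 probe, are shown to identify what was measured, as the array files give them with mm7 coordinates. The Kcnk6 probe is on the minus strand at chr7:26161668-26161727. The Cacna1a probe used is on the plus strand at chr8:83220770-83222742, a span longer than the probe, and the second is at chr8:83201723-83201782. No gene model of this build was used, so exons and untranslated regions are not stated. The Kcnk6 probe has 27 G or C bases and both Cacna1a probes 33. No capitals are used, since no part is set apart.
Kcnk6 probe: tgggaagtgatgactattcctggttctgaa
Cacna1a probe: acaggtttggggacagatctgagcatgacc
Cacna1a second probe: ggatggacctgccggtagcagatgacaaca

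**Figure D5:**
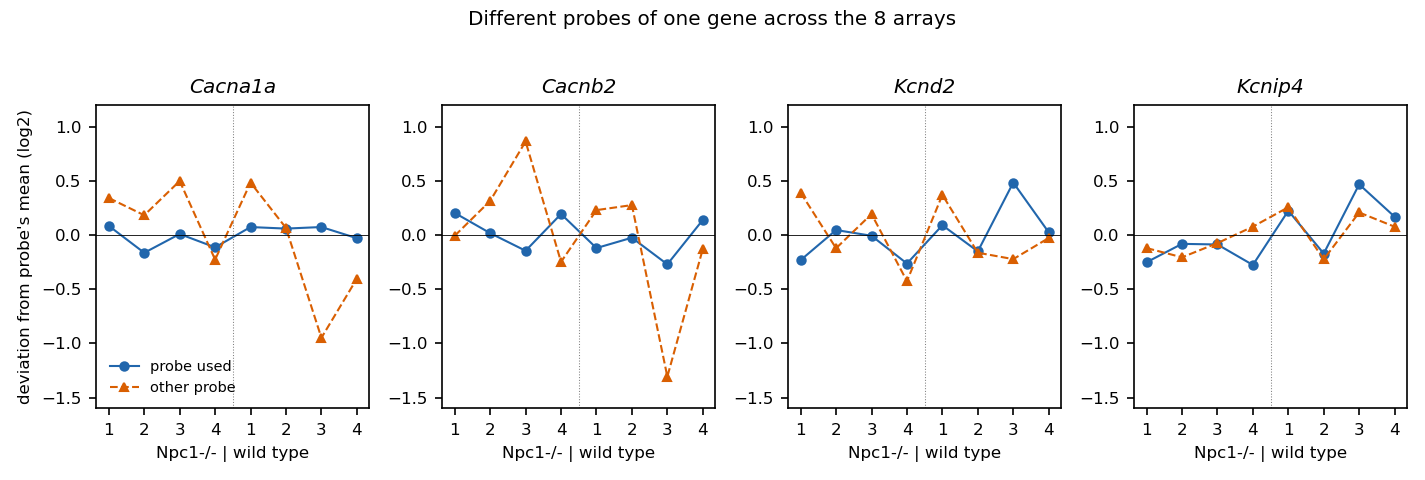
Deviation of each probe from its own mean over the 8 arrays (log2, y axis) for Cacna1a, Cacnb2, Kcnd2 and Kcnip4, by array, Npc1-/- replicates on the left and wild-type replicates on the right; blue circles are the probe used and orange triangles the other probe (for Cacnb2, the brighter of the others). The second probe of Cacna1a lies far below the first on wild-type replicate 3, while the probes of Kcnip4 stay closer together.

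Genes that work with the channels did not pass the test either. Of 19 tested scaffold genes of the axon initial segment and node of Ranvier, 0 were called and the median log2 fold change was -0.04. The smallest p values in that list belonged to Cntn2, an adhesion protein that holds Shaker channels beside the node, with -0.26 ± 0.09, and Lgi3, a secreted protein of the same complexes, with -0.29 ± 0.11 (limma adjusted p = 0.492 and 0.576). Of 19 intracellular modulators, 0 were called and the median was -0.05. Rimbp2, which links calcium channels to release sites, had 0.48 ± 0.13, and Stac, an adaptor of L-type channels, had -0.31 ± 0.11 (limma adjusted p = 0.277 and 0.542).

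Of 17 tested related channels, 0 were called and the median log2 fold change was 0.07. Hvcn1, the voltage-gated proton channel of microglia and other phagocytes, had signals of -3.38, -2.81, -2.87 and -2.49 on Npc1-/- arrays, against -4.34, -5.66, -4.14 and -4.37 on wild-type arrays. The genotypes did not overlap, and the difference of 1.74 ± 0.34 missed the threshold (limma adjusted p = 0.0743). The lowest value, -5.66 on wild-type replicate 2, enlarges that difference and lay under the dimmest spot well above background on that array. In unscaled log2 units that spot was at 5.74, where the array's 75th percentile was 9.56.

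The 25 channel genes that were not tested were above background on too few arrays. They included Cacna1f, Cacng1, Cacng6, Kcnd1, Kcne3, Kcng3, Kcnh7, Kcnj1, Kcnj15, Kcnj2, Kcnj5, Kcnk16, Kcnk5, Kcnk7, Kcnmb1, Kcnn3, Kcnn4, Kcnq3, Kcnt2, Kcnv1, Kcnv2, Scn10a, Scn7a and Scn9a. Kcnk7 was well above background on 3 Npc1-/- arrays and 0 wild-type arrays, and Kcnk5 on 1 Npc1-/- and 2 wild-type arrays. With no filter on dim probes all 122 were tested, and 0 were called.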

How the data were processed

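Cerebellar RNA was hybridised to 8 Agilent arrays, 4 Npc1-/- and 4 wild type, grouped by the genotype label. The submitters' processing notes name Agilent Feature Extraction 9.5. Its deposited intensity values had the background subtracted and were detrended inside the array; per the file headers, no scaling across arrays was done. The deposited files also hold flags for spots above background and outliers, and probe coordinates in mm7.

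Signals were taken as log2, minus each array's 75th percentile over non-control spots. Outlier spots, 74 to 115 per array, were left out, and no spot was saturated. Spots of a probe were averaged, and a probe was kept if well above background on 4 or more of 8 arrays (27167 of 41174). The brightest probe stood for a gene, giving 17984 genes, named through RefSeq where possible. The genotype difference was fitted in R 4.3.3 by limma 3.58.1, using lmFit and eBayes, with two-sided p-values adjusted by Benjamini-Hochberg over all genes, with a threshold of 0.05. Plots used matplotlib 3.10.9. The fit was tested on simulated data.

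The members and lists were chosen with earlier results of these data known. Named genes were those past the threshold, the 8 with the smallest unadjusted p, those whose genotypes did not overlap, and 33 tested genes with known roles in cerebellum; outside the members, list genes past the threshold or else the 2 with the smallest p per pathway list. Not every gene named by this rule is reported here. The 4 slides and 2 scan days were tried as blocks, beside other normalizations, filters, array weights and leaving out each array.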

Additional observations from a re-analysis of the deposited data

Results flagged for a closer look

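3 of 80 groups tested, each the 4 arrays of one genotype for one named channel gene, had 1 array far from the other 3, by a gap past Dixon's critical value; chance gives about 1 in 20. Kcnk12 was 0.93 on Npc1-/- replicate 1, against 0.78 to 0.80 on the other Npc1-/- arrays, and still below every wild-type array. Kcna6 was -2.67 on Npc1-/- replicate 1, against -1.99 to -1.87 on the other Npc1-/- arrays. Cacna1a was 0.07 on wild-type replicate 4, against 0.16 to 0.17 on the other wild-type arrays, a gap that is large only beside their narrow range.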

How the results depend on the processing

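With 20 alternatives, channel genes called numbered 0 or 1 throughout, beside 0 as reported, and the 1 was Kcnk6 each time. It passed with the 75th percentile taken over probes above background on all 8 arrays (limma adjusted p = 0.0336), with only those probes tested (0.0386), with the slide as a random block (0.0251), with array weights (0.0116), and among the fits that left out 1 array only without Npc1-/- replicate 3 (0.0240). Its log2 fold change ran from 0.47, with normexp and quantile normalization, to 0.95. The median log2 fold change of the channel genes was 0.0386 with the percentile over probes above background on all 8 arrays, 0.0418 with the mean of all probes, -0.0380 with only probes above background on all 8 arrays, -0.0320 with array weights, -0.0320 with no filter on dim probes, and -0.0076 to 0.0345 with 1 array left out. Genes called in all, 138 as reported, were 87 with quantile normalization, 89 with probes above background on all 8 arrays, 59 with no filter on dim probes, 38 with the slide as a block, 309 with array weights, and 55 to 148 with 1 array left out. The replicate block gave 27 genes called, 0 of them channel genes, and a median of -0.0137. Deviations from the genotype mean had correlations of 0.15, 0.04, -0.44 and 0.20 between same-numbered arrays. The labels do not say whether the numbers pair the samples, and 4 such correlations cannot settle it. Of the single channel genes named, Cacna1a kept its sign in 19 of 20 alternatives and turned as given above. Others turned more often. The sign stayed in 12 alternatives for Scn1a and Cacna2d2, 13 for Cacna1c, 14 for Cacna2d1 and 15 for Scn2a. It stayed in 16 for Cacnb4, 17 for Kcna1 and Kcnc1, and 18 for Cacng2 and Kcnab2. Kcnk12 kept its sign in 20 of 20 alternatives, from -0.39 to -0.28. Without wild-type replicate 3 the log2 fold changes of Kcnd2, Kcnk1 and Kcnk3 were each -0.10, that of Kcnip1 -0.12, that of Scn2b -0.06, that of Kcnj6 0.12 and that of Kcnd3 0.14, all over 1.5 times nearer to 0 than reported; without Npc1-/- replicate 4, Cacna1g was -0.16 and Kcnma1 -0.10. The cause of these shifts was not tested. 4 arrays per genotype and probes near background limit the dim genes most.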

Other observations

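The array weights that limma estimated from the spread of all genes were lowest for wild-type replicate 3 (0.388) and highest for wild-type replicate 4 (2.92). Wild-type replicate 3 is the array with the second probe lowest in 5 of the 7 comparisons whose gap varied by more than 1 log2 unit. It was also the lowest in some comparisons with smaller gaps, among them Cacng2 and Kcnip4, and other arrays were in the rest.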
